A study of Mus musculus with 2 samples.

Results

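Activated matrix fibroblasts of the mouse heart were described in 2 single-cell libraries, Sham and TAC, by selecting cells on their measured counts of Postn, Cilp, Ltbp2 and Meox1. A barcode with at least 200 detected genes was a member when 5 conditions held. Ryr2 and Myh6 made up under 0.6% of its unique molecular identifiers (UMIs), Pdgfra, Col1a2, Col3a1 and Dcn together had 2 or more UMIs, and the 4 activation genes together had 4 or more. F13a1 and Adgre1 together, and Flt1 and Cdh5 together, had at most 1 UMI each. These conditions were met by 146 of 19865 barcodes, 87 in Sham and 59 in TAC. The reference cells were the 3639 fibroblasts (1773 and 1866) that passed the other 4 conditions and had 0 UMIs of the 4 genes. A further 559 fibroblasts (311 and 248) had 1 to 3 such UMIs and are called intermediate below. Since the members were chosen on these counts, their levels of the 4 activation genes and of the 4 fibroblast genes are a description and not a finding.

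Resident cardiac fibroblasts build and renew the interstitial matrix. On injury or pressure load, some become activated and secrete collagens and matricellular proteins, and a further step, the myofibroblast, adds contractile proteins such as smooth muscle actin. Postn encodes periostin, a secreted matricellular protein that binds collagen and is a standard mark of the activated state. Cilp encodes a secreted matrix protein first known from cartilage, and Ltbp2 a protein of the latent TGF-beta binding family that associates with microfibrils. Meox1 encodes a homeobox transcription factor of the fibroblast stress response.

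All mice were C57BL/6. The TAC (transverse aortic constriction) group, labelled male, had the aortic arch tied at 8 weeks of age to overload the left ventricle and was kept for 6 weeks. The Sham group went through the same surgery without the tie, although the deposit's design text calls its animals uninjured. Per the paper, hearts were dissociated into single cells, and a 10x Chromium 3′ kit was used. Each library combined the cells of 3 to 5 hearts, with 1 library per condition. A difference between conditions therefore cannot be told apart from one between library preparations, and no test was possible. The matrices held 28146691 UMIs in Sham and 29108986 in TAC, with medians of 1964 and 2143 UMIs per barcode. They shared 32 barcode sequences, of which 0 belonged to activated cells. Levels below are UMIs per 1000000 UMIs of a group of cells, summed over its cells. The 95% intervals, given in parentheses, are exact Poisson for levels, exact conditional binomial for ratios and Clopper-Pearson for shares, and cover counting error only.

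The genes that define the cells lie on 4 chromosomes. In the GENCODE M21 annotation of GRCm38, Postn (ENSMUSG00000027750) is at chr3:54361109-54391037 on the plus strand and Cilp (ENSMUSG00000042254) at chr9:65265180-65280605 on the plus strand. Ltbp2 (ENSMUSG00000002020) is at chr12:84783212-84876532 on the minus strand and Meox1 (ENSMUSG00000001493) at chr11:101877510-101894374 on the minus strand. All 4 are annotated as protein coding. No promoter sequence was available for Meox1 in the RefSeq set used here. The promoters of the other genes of the selection, Postn, Cilp and Ltbp2, are shown. Each sequence runs from 250 bases before the RefSeq start site to 50 bases after it in GRCm38.p6, 5′ to 3′ on the gene's strand, at chr3:54360857-54361156 (+), chr9:65264930-65265229 (+) and chr12:84876442-84876741 (-). Capitals mark matches, on either strand, to the TATA box letters TATATAA and to the SMAD box letters CAGAC.
Postn promoter: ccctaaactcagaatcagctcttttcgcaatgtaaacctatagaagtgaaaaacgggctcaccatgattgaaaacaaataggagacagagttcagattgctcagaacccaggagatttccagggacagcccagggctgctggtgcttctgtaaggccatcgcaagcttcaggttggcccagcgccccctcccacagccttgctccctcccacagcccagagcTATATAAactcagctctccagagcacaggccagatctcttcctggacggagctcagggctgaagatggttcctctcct
Cilp promoter: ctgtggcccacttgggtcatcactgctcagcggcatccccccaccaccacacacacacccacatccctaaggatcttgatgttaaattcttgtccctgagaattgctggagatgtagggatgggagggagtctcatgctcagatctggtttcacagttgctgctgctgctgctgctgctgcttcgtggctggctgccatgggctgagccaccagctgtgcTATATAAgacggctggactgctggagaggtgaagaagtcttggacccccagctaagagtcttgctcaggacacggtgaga
Ltbp2 promoter: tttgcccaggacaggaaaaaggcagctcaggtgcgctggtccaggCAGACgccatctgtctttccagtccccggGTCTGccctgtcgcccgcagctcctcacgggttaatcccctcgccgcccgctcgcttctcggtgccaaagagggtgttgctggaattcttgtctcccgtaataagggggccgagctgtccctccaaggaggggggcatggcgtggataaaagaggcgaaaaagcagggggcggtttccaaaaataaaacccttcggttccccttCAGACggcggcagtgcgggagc

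The Postn window held a single TATATAA that began at position -28 from the start site, and the Cilp window a single one at -30. This motif was present in 1065 of 32851 RefSeq promoters of the same length (3.24%). The Ltbp2 window held 3 SMAD box matches, at -205, -176 and 28, and this short motif was present in 49.6% of the promoters. The letters GGAATG (a TEAD site, in 14.7% of promoters) and TGANTCA (an AP-1 site, in 7.81%) were not found in the 3 windows. These matches describe the letters only.

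Postn supplied most of the UMIs that selected the cells. In the 87 activated cells of Sham, Postn had 419 UMIs, a level of 1348 (1222 to 1483), Cilp 196 UMIs at 630.6 (545.4 to 725.3), Ltbp2 115 UMIs at 370 (305.4 to 444.1) and Meox1 71 UMIs at 228.4 (178.4 to 288.1). In the 59 activated cells of TAC, Postn had 326 UMIs at 1546 (1382 to 1723), Cilp 141 at 668.5 (562.7 to 788.3), Ltbp2 87 at 412.5 (330.4 to 508.8) and Meox1 80 at 379.3 (300.7 to 472). The order of the 4 genes was thus the same in both libraries, although the levels of Ltbp2 and Meox1 in TAC overlapped in their intervals. These cells, 0.876% and 0.594% of the barcodes, held 49.2% of all Postn UMIs of the Sham library and 39.5% of those of TAC. For Cilp the shares were 47.2% and 49.7%, for Ltbp2 51.1% and 58.4%, and for Meox1 23.6% and 24.0%, so that most Meox1 UMIs lay outside the selected cells.

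The members differed widely among themselves, as the plot of UMIs per cell shows. In Sham the lowest, median and highest sums of the 4 genes were 4, 6 and 48 UMIs, and in TAC they were 4, 7 and 53. The 10 highest cells held 39.0% of these UMIs in Sham and 46.7% in TAC, and 10 Sham and 13 TAC cells had 15 or more. Of the Sham cells, 27 had UMIs of only 1 of the 4 genes, 33 of 2, 22 of 3 and 5 of all 4. In TAC these numbers were 13, 26, 16 and 4. Just inside the threshold, 20 Sham and 17 TAC cells had exactly 4 UMIs, and just outside it 29 and 26 fibroblasts had exactly 3.

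**Figure D1:**
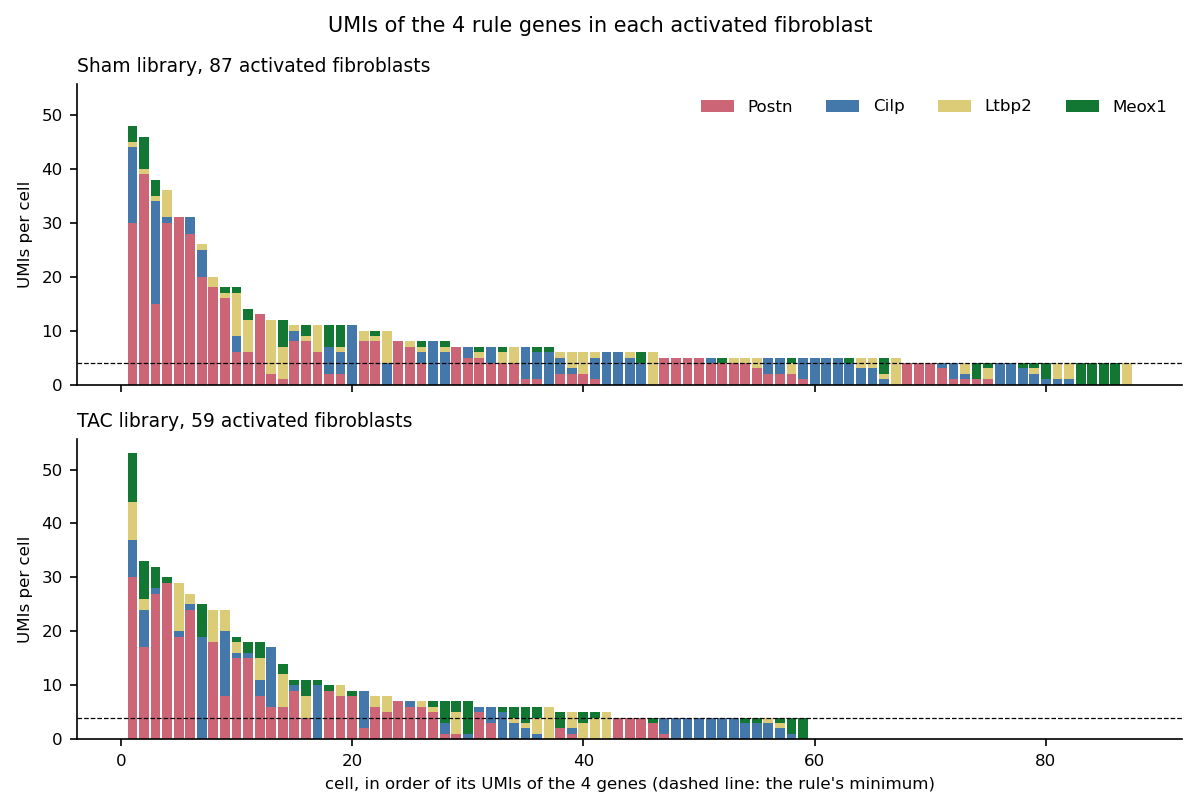
UMIs of Postn, Cilp, Ltbp2 and Meox1 (stacked bars, y axis) in each activated fibroblast of the Sham (top) and TAC (bottom) library, cells ordered by the sum (x axis). The sums run from 4 to 48 UMIs in Sham and from 4 to 53 in TAC, and a few cells led by Postn hold much of the total.

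Activated cells made up 4.01% (3.22 to 4.92) of the 2171 fibroblasts of Sham and 2.72% (2.07 to 3.49) of the 2173 fibroblasts of TAC, a TAC to Sham ratio of 0.678 (0.478 to 0.954). The share was lower in the TAC library, but whether by more than counting error depended on the rule. Under 14 other settings the ratio was below 1 in each, and its interval included 1 in 6 of them. At 6 or more UMIs, 46 Sham and 37 TAC cells gave a ratio of 0.804 (0.507 to 1.27), and without Postn in the rule 50 and 38 cells gave 0.759 (0.484 to 1.18). The members were deeper than the reference cells, with median UMI counts of 3180 in Sham and 3332 in TAC against 2195 and 2240. With each cell thinned to 1000 UMIs, 21 of 2069 Sham fibroblasts (1.01%) and 18 of 2113 TAC fibroblasts (0.852%) still had 4 or more UMIs of the genes, a ratio of 0.839 (0.421 to 1.65). Over all fibroblasts, Postn was at 102.6 in Sham and 76.1 in TAC (ratio 0.742, 0.652 to 0.844), Cilp at 57.9 and 41.3 (0.713, 0.598 to 0.849) and Ltbp2 at 32.0 and 22.1 (0.690, 0.542 to 0.875). Meox1 had the opposite sign, at 34.1 and 40.5, with an interval that includes 1 (ratio 1.19, 0.974 to 1.45). Within the activated cells, the intervals of the TAC to Sham ratio included 1 for Postn (1.15, 0.989 to 1.33), Cilp and Ltbp2, and not for Meox1 (1.66, 1.19 to 2.32).

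With every fibroblast thinned to 1000 UMIs, Postn, Cilp and Ltbp2 were seen more often in cells with another of these genes than in cells without it. Thinning left out 96 Sham and 58 TAC reference cells and 6 and 2 intermediate cells with fewer UMIs. Of the 52 Sham fibroblasts with an Ltbp2 UMI, 23.1% (12.5 to 36.8) also had Postn, against 3.62% (2.85 to 4.53) of those without Ltbp2. In TAC these shares were 30.3% (15.6 to 48.7) of 33 cells and 2.45% (1.83 to 3.21). Postn was seen in 17.6% of Sham cells with Cilp and 3.65% of those without it, and in 17.02% and 2.57% in TAC. The pair of Postn and Meox1 was less close in Sham, where 4.71% (1.30 to 11.6) of cells with Postn had Meox1 against 2.67% (2.01 to 3.48) of cells without, with overlapping intervals. In TAC these were 11.48% (4.74 to 22.2) and 2.68% (2.03 to 3.48). Among barcodes with macrophage genes and no UMI of the 4 fibroblast genes, a background for free RNA, Postn was seen at the same depth in 0.119% of 841 in Sham and 0.339% of 884 in TAC.

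Fibroblast markers that the selection did not use were mixed. Col1a1 and Lum were at higher levels than in reference cells, Fap was lower, Tcf21 was scarce and Thy1 was not seen. Of 12 fibroblast identity genes, 4 of which the rule used, 11 had UMIs in the activated cells of each library and Thy1 had 0. Col1a1, the main chain of collagen I, was at 167 in activated cells of Sham and 261 in TAC, against 108 and 122 in the reference cells, and Lum (lumican) was at 80.4 and 185 against 48.5 and 72.0. Tcf21, a transcription factor of resident fibroblasts, had only 4 and 7 UMIs. Acta2, which encodes smooth muscle actin, had 4 UMIs in the Sham cells and 1 in the TAC cells, at levels of 12.9 and 4.74 against 2.13 and 4.22 in reference cells. Tagln had 2 and 1, and Cthrc1, a gene of fibroblasts in scars, had 1 and 0. Of 18 cell cycle genes, 6 and 4 were seen, with 10 and 6 UMIs in all and 0 of Mki67. The 20 contractile genes of myofibroblasts, which include these and more general cytoskeletal genes, summed to 2036 in activated Sham cells and 2242 in TAC, against 1345 and 1422 in reference cells. The cells are called activated fibroblasts by their rule.

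Outside the genes of the rule, genes such as Col8a1, Mical2 and Vcan were higher in activated cells than in reference fibroblasts, and genes such as Lvrn, Scara5 and Bmper were lower. A gene was compared where the mean of its levels in both groups came to at least 20 UMIs in the smaller group, and counted as different at 2-fold. In Sham, 101 of 3140 compared genes (3.22%) were at least 2-fold higher in activated cells and 107 (3.41%) at least 2-fold lower. In TAC, 106 of 2211 (4.79%) were higher and 112 (5.07%) lower. Of 2172 genes compared in both libraries, 46 (2.12%) were higher in both, 50 (2.3%) were lower in both, and 0 differed 2-fold in opposite directions. The 46 genes are 75.4% of the 61 genes higher in Sham and 48.9% of the 94 higher in TAC among the genes compared in both. The median log2 ratio over all compared genes was 0.02 in each library. Since a gene can pass the minimum through its level in activated cells alone, the counts with the minimum taken from the reference level were 25 higher and 76 lower in both. Without the 10 Sham and 13 TAC cells of 15 or more UMIs, 25 genes were higher and 32 lower in both libraries, of which 25 and 30 were among the 46 and 50.

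**Figure D2:**
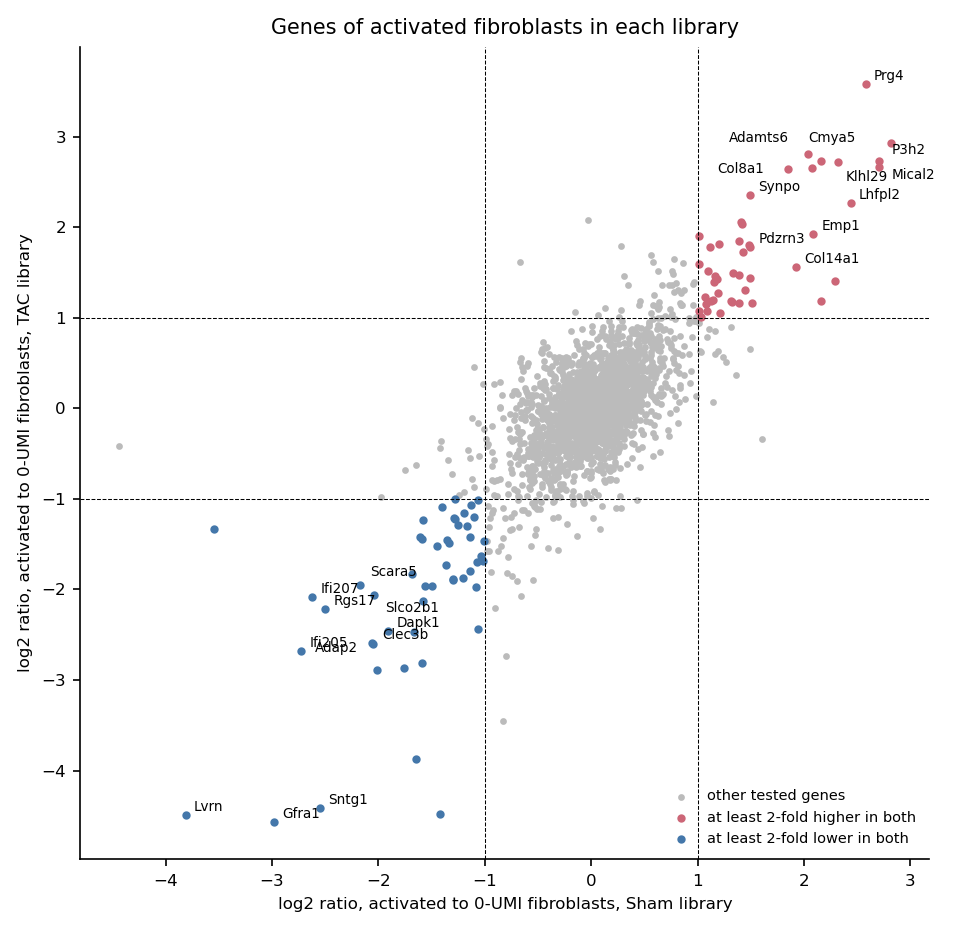
Each point is a gene compared in both libraries, at its log2 ratio of activated to 0-UMI fibroblasts in Sham (x axis) and in TAC (y axis), with dashed lines at 2-fold. Genes at least 2-fold higher in both (46) lie at the upper right, those at least 2-fold lower in both (50) at the lower left, and 0 lie beyond 2-fold in the other corners.

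Of the 12 leading genes higher in activated cells, Col8a1, P3h2, Prg4, Adamts6 and Col14a1 encode secreted matrix proteins or enzymes that act on matrix or collagen. By their reference level alone, 5 of the 12 leading genes (Col8a1, Mical2, Adamts6, Emp1 and Pdzrn3) would pass the count minimum in both libraries and Klhl29 in Sham. The other 6 (P3h2, Prg4, Lhfpl2, Cmya5, Col14a1 and Synpo) entered through their level in activated cells, where they could only appear higher. Col8a1, a chain of the short network collagen VIII, was the most abundant of the 12. It had 1343 UMIs in the activated Sham cells, a level of 4321, against 1197 in the reference cells, a ratio of 3.61 (3.40 to 3.83). In TAC it had 1230 UMIs, at 5831 against 933 (ratio 6.25, 5.86 to 6.66). The intermediate cells lay between, at 2026 and 1925. P3h2, which encodes a prolyl 3-hydroxylase that modifies collagen chains, was at 148 against 22.7 in Sham (6.52, 4.49 to 9.36) and at 185 against 27.8 in TAC (6.66, 4.52 to 9.61). P3h2 is also a gene of macrophages in these libraries, seen in 29.0% and 20.8% of the macrophage barcodes at 1000 UMIs. The 10 macrophage markers summed to 41.8 in activated Sham cells and 75.9 in TAC, against 81.3 and 89.1 in the reference cells. F13a1 and Adgre1 of this list were limited by the rule in both groups, which fixed part of these sums.

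Prg4, which encodes the lubricating proteoglycan lubricin, was at 129 against 21.5 in Sham (5.98, 4.02 to 8.77) and at 479 against 40.0 in TAC (11.97, 9.29 to 15.4). Adamts6, a secreted metalloprotease, was at 486 against 118 (4.11, 3.40 to 4.94) and at 721 against 103 (7.005, 5.79 to 8.43). Col14a1, a fibril-associated collagen, was at 209 against 55.1 (3.80, 2.84 to 5.02) and at 251 against 85.3 (2.94, 2.17 to 3.93). Of these 3 genes, Adamts6 alone would pass the minimum by its reference level.

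The other 7 leading genes have varied roles. Mical2, an enzyme that oxidizes actin, was at 795 against 121 in Sham (6.54, 5.60 to 7.63) and 815 against 128 in TAC (6.35, 5.32 to 7.54). Synpo, which encodes the actin-binding protein synaptopodin, was 2.82 times (1.90 to 4.08) and 5.11 times (3.52 to 7.25) as high, and Cmya5, a muscle scaffold protein also called myospryn, 4.46 and 6.63 times. Pdzrn3, a ubiquitin ligase with PDZ domains, was 2.82 and 3.44 times as high, and the membrane protein gene Emp1 4.24 and 3.81 times. Klhl29 and Lhfpl2 complete the 12 leading genes, at 4.98 and 6.57 times, and at 5.42 and 4.81 times. All 12 had intermediate levels in the cells of 1 to 3 UMIs in both libraries. Over the 46 genes, the level of intermediate cells lay between the other groups in both libraries for 44. No leading gene owed over 20% of its activated UMIs to 1 cell, which was a condition for naming it, and all 12 remained at least 2-fold higher in each library without the cells of 15 or more UMIs. Then Mical2 was 6.33 and 4.26 times as high, and Col8a1 3.34 and 4.76 times.

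At 1000 UMIs per cell, which no activated cell failed to reach, a Mical2 UMI was seen in 41.4% (30.9 to 52.5) of activated and 10.3% (8.90 to 11.9) of reference cells of Sham, and in 47.5% (34.3 to 60.9) and 9.35% (8.05 to 10.8) in TAC. The unthinned shares were 71.3% and 20.1%, and 69.5% and 19.8%. In the macrophage barcodes, at median depths of 1415 and 1737 UMIs, the thinned shares were 6.18% and 4.41%. Col8a1 was seen in 86.2% of activated and 49.4% of reference cells of Sham, and in 83.1% and 39.6% in TAC, against 1.90% and 2.04% of macrophage barcodes. Unthinned, these Col8a1 shares were 96.6% and 62.0% in Sham and 93.2% and 53.6% in TAC. Prg4 was seen in 12.6% of activated cells of Sham and 32.2% of those of TAC, against 1.61% and 3.04% of reference cells and 0.238% and 0.679% of macrophage barcodes (unthinned 19.5% and 57.6%, against 3.72% and 5.25%). Thinning left out 242 and 127 macrophage barcodes. Col8a1 was therefore near general among the activated cells, while Prg4 was not. Col8a1 was also common in the reference cells, so its detection was not particular to the activated cells.

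**Figure D3:**
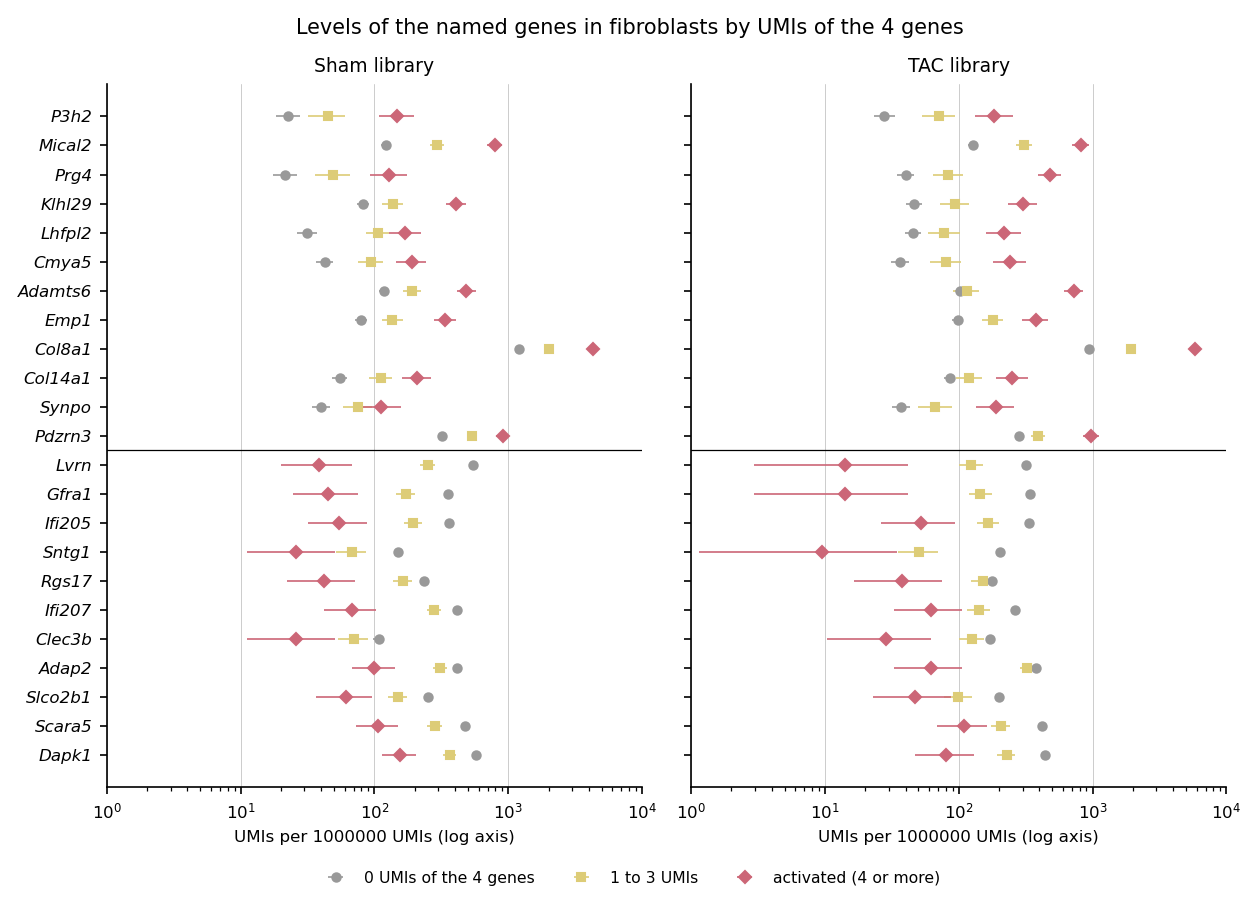
Levels (UMIs per 1000000 UMIs, log axis, with exact Poisson 95% intervals) of 12 leading genes higher and 11 lower in activated fibroblasts, in cells with 0, 1 to 3, and 4 or more UMIs of the 4 genes, for Sham (left) and TAC (right). The intermediate cells lie between the other groups for these genes, as for Col8a1 (1197, 2026 and 4321 in Sham).

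Among the matrix lists, fibrillar collagens and proteoglycans had the highest median ratios over their compared genes. Some of these genes entered through their level in activated cells, where they could only appear higher. The log2 median of proteoglycans in TAC was 0.37 at 1 UMI in each group. That of fibrillar collagens in Sham was 0.18 at an expected count of 50. Besides Col3a1 and Col1a2, which the rule used, 5 of 9 fibrillar collagen genes were compared in each library, 4 of them also by their reference level alone. Col5a2, a chain of collagen V, was 1.80 times (1.59 to 2.03) as high in Sham and 2.20 times (1.92 to 2.52) in TAC, and Col27a1 2.21 and 2.29 times. Col5a3 went the other way, at 161 against 339 in Sham (0.474, 0.350 to 0.628) and 94.8 against 308 in TAC (0.308, 0.188 to 0.478). Col5a2 and Col5a3 thus differed in direction. The median log2 ratio of the list was 0.63 in Sham and 1.10 in TAC.

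Of 25 other collagens, 12 were compared in Sham and 11 in TAC (11 and 9 by the reference level alone). Their medians were 0.23 and 0.76 on the log2 scale. Col8a1 and Col14a1 were at least 2-fold higher in both, Col15a1, a basement membrane zone collagen, in Sham (2.24, against 1.81 in TAC). Col4a1 and Col4a2, the chains of the common basement membrane collagen, were at 0.974 and 1.40 times the reference level in Sham and 0.977 and 1.33 times in TAC. Col6a6 had 3 and 0 UMIs in activated cells, against reference levels of 144 and 156, so that its ratio in Sham was 0.0668 (0.0137 to 0.196) and the interval of its ratio in TAC reached up to 0.113.

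Of 24 proteoglycan genes beside Dcn, 9 and 7 were compared (7 and 4 by the reference level alone), and 4 were higher in both libraries. They were Prg4, Vcan, Aspn and Bgn. Vcan, which encodes versican of the provisional matrix, was at 624 against 235 in Sham (2.66, 2.27 to 3.10) and 953 against 229 in TAC (4.16, 3.56 to 4.84). Bgn (biglycan) was at 293 against 135 (2.17, 1.72 to 2.71) and 683 against 199 (3.42, 2.85 to 4.09). Aspn (asporin) was 2.62 and 3.59 times as high, but 1 cell held 42.4% of its 66 UMIs in activated TAC cells. Gpc6 and Sdc2, which encode cell surface proteoglycans, were at 0.883 and 0.929 times in Sham and 0.826 and 0.962 times in TAC. The list median was 0.73 in Sham and 1.78 in TAC.

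Microfibril genes were mixed, with list medians of -0.01 in Sham and 0.69 in TAC. The genes compared were 14 and 9 (13 and 8 by the reference level alone). Mfap5, a microfibril glycoprotein, was at 1078 against 403 in Sham (2.67, 2.37 to 3.00) and 1418 against 347 in TAC (4.09, 3.60 to 4.63). Fbn1, which encodes fibrillin, was 1.78 and 1.74 times as high. Ltbp1, of the family of Ltbp2, was lower, at 373 against 478 (0.781, 0.642 to 0.942) and 237 against 486 (0.487, 0.361 to 0.645), and Fbn2 had only 2 and 5 UMIs against reference levels of 126 and 92.9. Eln (elastin) was at 0.660 times in Sham and 0.990 times in TAC, where 1 cell held 36.7% of its UMIs.

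Enzymes that act on the matrix showed no common direction. Of 24 genes of collagen processing, 11 and 9 were compared (9 and 7 by the reference level alone). The medians were 0.26 and 0.20, and P3h2 alone was higher in both. Plod2, a lysyl hydroxylase of collagen cross-linking, was 2.05 times (1.67 to 2.49) as high in Sham and 1.54 times (1.16 to 2.02) in TAC. Lox, the main lysyl oxidase, had only 2 UMIs in each group of activated cells. Of 30 proteases and inhibitors, 11 were compared in each library (10 by the reference level alone), with medians of -0.27 and -0.44. Adam12, a membrane metalloprotease of activated mesenchyme, was 7.04 and 7.62 times as high, with 37.8% and 30.0% of its UMIs in 1 cell. Adam12 entered through its level in activated cells, where it could only appear higher. Adamts5 (0.544, 0.465 to 0.632, and 0.336, 0.253 to 0.438) and Htra3 (0.508 and 0.335) were lower.

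Several other genes linked to activation were higher, while the resident fibroblast genes were lower. Of 25 genes of activated fibroblasts outside the rule, 9 were compared in Sham and 5 in TAC (6 and 4 by the reference level alone). Of these, 6 and 3 were at least 2-fold higher and 0 at least 2-fold lower, with medians of 1.16 and 1.41. These counts and medians include genes that entered through their level in activated cells, where they could only appear higher. Piezo2, given below, was among them in Sham. Nox4, an NADPH oxidase, was at 1457 against 298 in Sham (4.89, 4.39 to 5.45) and 370 against 140 in TAC (2.65, 2.07 to 3.36). Fstl1, which encodes a follistatin-like secreted protein, was 2.23 and 2.76 times as high, and Piezo2, a mechanosensitive ion channel, had 45 and 31 UMIs in activated cells at levels of 145 and 147 against 9.22 and 14. Fap, which encodes fibroblast activation protein, was lower in both libraries, at 0.665 times (0.484 to 0.895) and 0.549 times (0.357 to 0.809). The medians were 0.80 in each library without the cells of 15 or more UMIs.

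Of 20 resident fibroblast genes, 14 were compared in Sham and 12 in TAC, all also by their reference level, and 0 were at least 2-fold higher. In Sham 6 were at least 2-fold lower, and in TAC 5, the same 5 being lower in both. The medians were -0.62 and -0.78. Scara5, a ferritin receptor, was at 106 against 479 in Sham (0.222, 0.152 to 0.312) and 109 against 420 in TAC (0.260, 0.164 to 0.391). Bmper, a secreted BMP modulator, was at 132 against 446 (0.296) and 56.9 against 416 (0.137), and Lpl (lipoprotein lipase) at 54.7 against 161 (0.339) and 47.4 against 185 (0.256). Dpep1 and Ms4a4d were the other 2 genes lower in both. Of 17 genes of adventitial fibroblasts, 8 were compared in each library (7 and 8 by the reference level alone). Above the reference level were 7 in Sham and 5 in TAC. The medians were 0.27 and 0.54. All 17 genes summed to 2992 in activated Sham cells and 3665 in TAC, against 1746 and 2036 in reference cells. Mfap5 was at least 2-fold higher in both and Clec3b at least 2-fold lower in both, while Pi16, a mark of universal fibroblasts, was 1.89 and 1.51 times as high. A list of 8 genes of other fibroblast subsets summed to 7094 in activated Sham cells and 7931 in TAC, against 2940 and 2552 in reference cells. Its medians were 0.49 over 8 compared genes in Sham and 1.13 over 6 in TAC (7 and 5 by the reference level alone). Of the compared genes, 4 and 5 were above the reference level.

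The leading genes among those lower in activated cells included Lvrn, Gfra1, Ifi205, Sntg1, Rgs17, Ifi207, Clec3b, Adap2, Slco2b1, Scara5 and Dapk1. Lvrn, an aminopeptidase of the cell surface, had 12 UMIs in the Sham cells, at 38.6 against 542 (0.0712, 0.0368 to 0.125), and 3 in the TAC cells, at 14.2 against 320 (0.0444, 0.00914 to 0.130). Gfra1, the receptor for the neurotrophic factor GDNF, had 14 and 3 UMIs, at 0.127 times (0.0690 to 0.213) and 0.0421 times (0.00868 to 0.123). At 1000 UMIs per cell, Lvrn was seen in 4.60% and 1.69% of activated cells and 30.3% and 20.7% of reference cells (unthinned 9.20% and 3.39%, against 43.3% and 34.2%), so that Lvrn was seen in a smaller share of the activated cells.

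Ifi205 and Ifi207, of the interferon-inducible p200 family, were at 0.151 and 0.162 times in Sham and 0.156 and 0.236 times in TAC. They are close paralogs, between which reads may have been divided. Clec3b, which encodes the plasminogen-binding protein tetranectin, was at 0.239 and 0.165 times. Slco2b1, an organic anion transporter, was at 0.243 and 0.239 times, and Dapk1, a kinase of cell death pathways, at 0.267 and 0.182 times. Adap2 was at 0.241 and 0.165 times. The overlapping antisense gene Adap2os was lower too, with log2 ratios of -1.64 and -3.87 (use of strand in counting is not given in the sources used here). The 11 leading lower genes named here remained at least 2-fold lower in each library without the cells of 15 or more UMIs.

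**Figure D4:**
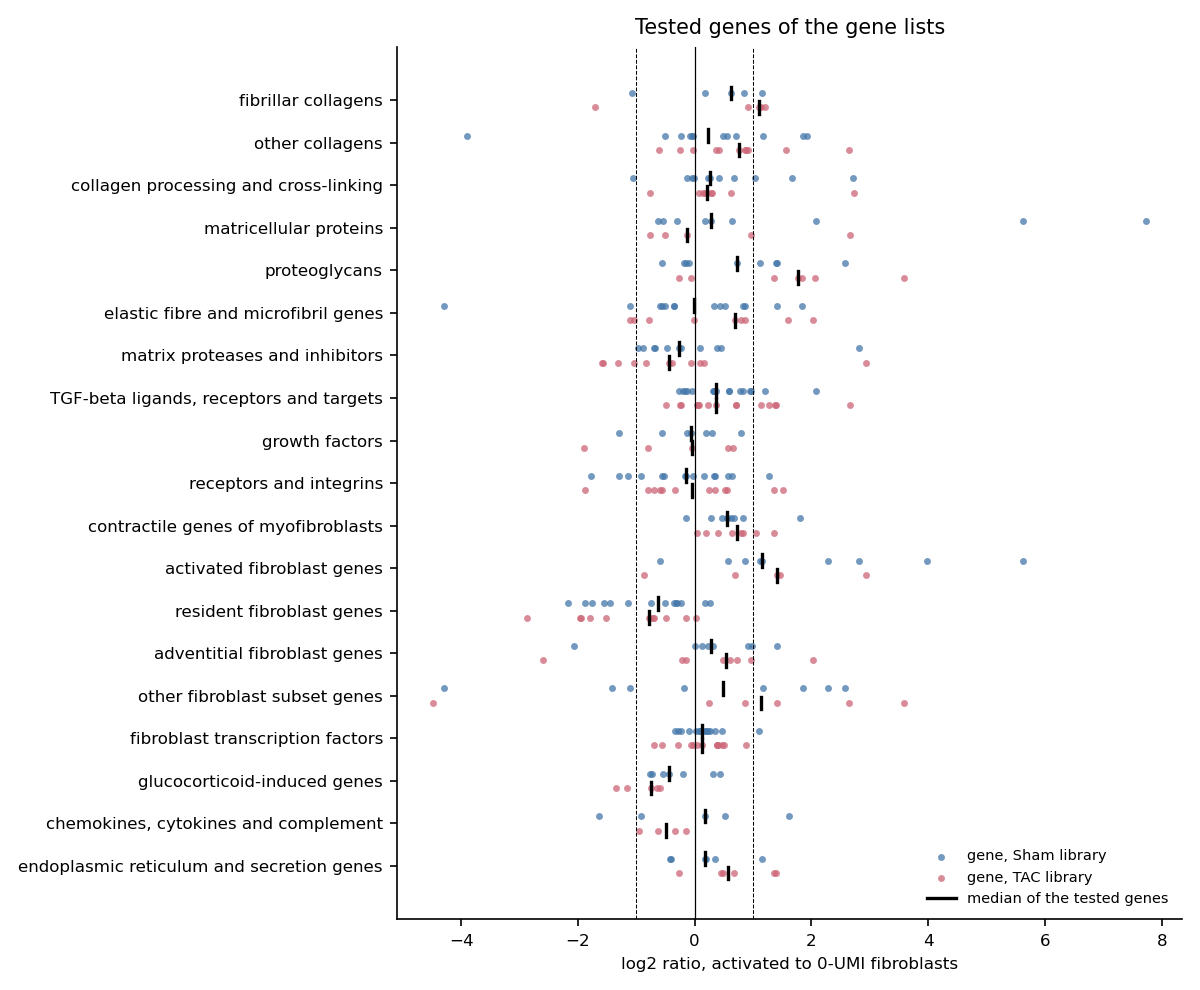
Log2 ratio of activated to 0-UMI fibroblasts (x axis) for each compared gene of the gene lists (rows), outside the 8 genes of the rule, in Sham (blue) and TAC (red), with the list median as a black bar and dashed lines at 2-fold. Activated fibroblast genes have medians of 1.16 and 1.41, resident fibroblast genes of -0.62 and -0.78, and transcription factors of 0.13 in both.

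Of 28 TGF-beta pathway genes, 17 were compared in Sham and 15 in TAC (14 and 11 by the reference level alone), and 12 in each library were above the reference level. The medians were 0.36 and 0.37, against 0.02 over all genes. Among the ligands, Tgfb3 was at 96.5 against 41.8 in Sham (2.31, 1.51 to 3.41), and Tgfb2 at 0.833 and 1.29 times with intervals that include 1. Of the receptors, Tgfbr1 was 1.5 times (1.24 to 1.81) as high in Sham and 2.21 times (1.78 to 2.71) in TAC, where 1 cell held 22.5% of its UMIs, and Tgfbr2 1.25 and 0.841 times. Among the targets, Ccn2, which encodes connective tissue growth factor, was at 232 against 55.1 (4.21, 3.18 to 5.50) and 299 against 47.3 (6.31, 4.69 to 8.39), with 20.8% and 14.3% of its UMIs in 1 cell. Pmepa1, an inhibitor of the pathway, was 1.95 and 2.63 times as high, and Skil 1.94 and 2.59 times. Smad3 was at 0.971 and 0.709 times. Ccn2 in both libraries and Tgfb3 in Sham entered through their level in activated cells, where they could only appear higher. The list medians include such genes. Tgfbr1, Pmepa1 and Skil were above the reference level by more than counting error in both libraries. The signal transducer Smad3 was not.

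Receptors and growth factors showed no common direction. Of 33 receptors and integrins, 15 and 12 were compared, with medians of -0.15 and -0.05. Il1r1, the interleukin 1 receptor, was at 0.406 times (0.291 to 0.551) in Sham and 0.272 times (0.158 to 0.436) in TAC, and Ddr2, a collagen receptor, at 0.530 and 0.575 times. Itgbl1 was 1.55 and 2.85 times as high, and Itga5, the fibronectin receptor chain, 1.27 and 2.56 times. Of 29 growth factor genes, 7 and 5 were compared (7 and 4 by the reference level alone). Angpt1, a ligand for endothelial Tek, was lower in both, at 0.407 times (0.292 to 0.553) and 0.269 times (0.164 to 0.417).

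Of 20 contractile genes, 9 and 8 were compared (8 and 6 by the reference level alone), and 8 in each library were above the reference level. The medians were 0.56 and 0.72, against 0.02 over all compared genes. These counts and medians include genes that entered through their level in activated cells, where they could only appear higher. Acta2 and Tagln were among the genes of this list too low to compare. Palld, which encodes the actin scaffold palladin, was 1.59 times (1.15 to 2.15) as high in Sham and 2.57 times (1.90 to 3.42) in TAC, and Pdlim5 1.54 and 1.56 times. Of 37 transcription factors, 14 and 13 were compared, with medians of 0.13 in each, and Sox6 alone was at least 2-fold higher, in Sham (2.16, 1.67 to 2.76, and 1.83 in TAC). Runx2 was 1.39 times (1.07 to 1.78) and 1.42 times (1.02 to 1.94) as high, and Tead1 1.28 and 1.30 times. Of the secretion genes, Creb3l2, a transcription factor of the secretory pathway, was 2.23 times (1.94 to 2.55) and 2.64 times (2.23 to 3.10) as high. The list of 23 secretion genes had medians of 0.18 and 0.57. In each library 6 of them were compared (6 and 5 by the reference level alone). Of 23 matricellular genes, 9 and 5 were compared (5 and 4 by the reference level alone), with medians of 0.29 and -0.13. Of 25 genes of chemokines, cytokines and complement, 5 and 4 were compared, with medians of 0.17 and -0.49, and of 24 Wnt genes 2 in each.

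For the 46 genes higher in both libraries, 30 had a RefSeq promoter of 300 bases, and for the 50 lower genes 36. The SMAD box letters were present in 17 (56.7%) of the former and 16 (44.4%) of the latter, against 42.1% of the 1702 promoters of all genes compared in both. TATATAA was in 0 of both sets and in 0.940% of those promoters, a share at which few or no matches are found in sets of this size. GGAATG was in 1 (3.33%) of the higher and 9 (25%) of the lower genes, against 11.9%.

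The activated cells were not uniform in the gene that led them. Postn had the most UMIs of the 4 genes in 36 Sham and 25 TAC cells, Cilp in 28 and 18, Ltbp2 in 13 and 7 and Meox1 in 7 and 6, with 3 tied cells in each library. In Sham the cells led by Postn held 365 Postn and 34 Cilp UMIs, and those led by Cilp 28 and 145. In TAC these were 291 and 25, and 17 and 105. The genes named next were chosen after their values were seen, from those at least 2-fold higher in cells led by 1 gene in both libraries. Ccn2 was 2.29 times (1.39 to 3.81) as high in the cells led by Postn as in the other activated cells of Sham, and 2.82 times (1.601 to 5.18) in TAC, with 34.1% of its UMIs there in 1 cell in Sham and 20% in TAC. Enah, an actin regulator, was 5.82 times (2.12 to 19.8) and 3.06 times (1.23 to 8.62) as high there, and Sox6 2.59 and 2.45 times. In the cells led by Cilp, Lsamp, which encodes an adhesion protein best known from neurons, was at 1186 against 271 (4.38, 3.17 to 6.13) in Sham and 1782 against 413 (4.31, 3.12 to 6.00) in TAC, where 1 cell held 41.4% of the UMIs. The reference cells had Lsamp levels of 730 and 761, between those of the Cilp-led and the other activated cells. Pcolce2, an enhancer of procollagen processing, was 2.08 times (1.18 to 3.70) and 3.48 times (1.35 to 9.36) as high.

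Several genes known from tendon, valve or scar matrix came from very few activated cells. Tnc, which encodes tenascin C, had 58 UMIs in 5 Sham cells and 37 in 4 TAC cells, of which 51 and 34 were in 1 cell each. Without that cell the levels were 22.9 and 14.4, against 3.78 and 12.4 in reference cells. In the intermediate cells of TAC, 1 cell held 162 of 166 Tnc UMIs. Thbs4 (thrombospondin 4) had 47 UMIs in 9 Sham cells and 24 in 5 TAC cells, while the reference cells had levels of 0.709 and 0.444. Comp (cartilage oligomeric matrix protein) had 26 UMIs in 11 Sham cells and 8 in 4 TAC cells, against reference levels of 3.07 and 2.44. The receptor gene Erbb4 had 141 UMIs in the activated TAC cells, of which 84 were in 1 cell, and 14 in Sham. Without their top cell, Thbs4 was at 81.4 in Sham and 43.8 in TAC, and Comp at 64.9 and 19.3, above the reference levels. Most UMIs of Tnc and Erbb4 in activated TAC cells were thus in 1 cell, while Comp in Sham was spread over more cells.

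Between the libraries, activated cells were compared over 2223 genes. At the 2-fold level, 59 (2.65%) were higher in TAC and 58 (2.61%) lower, and the median log2 ratio over all genes was -0.05. In the reference fibroblasts, 48 of the 59 were also higher in TAC and 52 of the 58 lower, 14 and 4 of them by at least 2-fold. The same shares over all 2223 genes are not known, so these counts cannot be set apart from a shift of the whole library. The split depended on the count minimum. With the minimum taken from the Sham level alone, 16 genes were higher and 110 lower, and with it taken from the TAC level alone 133 were higher and 30 lower. Without the cells of 15 or more UMIs, 27 genes were higher and 43 lower. The 10 highest ratios belonged to C3, Gm17106, Lrrc4, Pard3bos1, Iqgap2, Prg4, Gm47167, 5330438D12Rik, Apoe and Gm15261. The 10 lowest belonged to Eya2, Plcxd3, Zbtb16, Gria3, Nox4, Cables1, Pdgfd, Loxl3, Upp2 and Rnf213. Of the 10 highest, 2 would pass the minimum by their Sham level, and of the 10 lowest, 2 by their TAC level.

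C3, the central complement protein, had 11 UMIs in the activated Sham cells and 40 in the TAC cells, at 35.4 and 190 (ratio 5.36, 2.70 to 11.6). In the reference cells it was at 111 and 293 (2.64, 2.38 to 2.94). Apoe, a lipoprotein component, was at 54.7 and 171 in activated cells (3.12, 1.71 to 5.92) and 93.1 and 243 in reference cells (2.61, 2.32 to 2.93). Both genes were thus higher in TAC in either kind of fibroblast, and lower in activated than in reference cells of each library. Prg4 had a larger ratio in activated cells (3.72, 2.56 to 5.51) than in reference cells (1.86, 1.44 to 2.42), and these intervals do not overlap. C3, Apoe and Prg4 were named for their ratios in activated cells, a choice that favours larger ratios there. Pard3bos1, Gm47167 and Gm15261 are annotated as antisense and Gm17106 and 5330438D12Rik as processed transcripts, and without stated use of strand they cannot be told apart from genes that overlap them.

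Nox4 was at 1457 in activated Sham cells and 370 in TAC cells (0.254, 0.197 to 0.323), and at 298 and 140 in reference cells (0.469, 0.425 to 0.516). Its intervals did not overlap between the kinds of cell, although the Nox4 level stayed above the reference level within each library. Nox4, Eya2, Pdgfd, Loxl3 and Zbtb16 were named for their ratios in activated cells, a choice that favours more extreme ratios there than in reference cells. Eya2, a transcriptional coactivator with phosphatase activity, had 58 UMIs in Sham and 4 in TAC, at 187 and 19.0 (0.102, 0.0268 to 0.275), against 0.626 (0.576 to 0.681) in reference cells. Pdgfd, a growth factor of the PDGF family, was at 219 and 66.4 (0.303, 0.158 to 0.545), and Loxl3, of the lysyl oxidase family, at 183 and 56.9 (0.310, 0.151 to 0.585). In reference cells these 2 genes were at 0.872 (0.770 to 0.987) and 0.669 (0.547 to 0.817). Without the cells of 15 or more UMIs, the Pdgfd ratio was 0.529. Zbtb16, a zinc finger factor induced by glucocorticoids, was at 1605 and 322 (0.201, 0.153 to 0.259), and in reference cells at 2649 and 720 (0.272, 0.261 to 0.283). The 13 glucocorticoid-induced genes summed to 3024 and 1180 in activated cells and 4441 and 2132 in reference cells, and the part of this in other TAC to Sham ratios was not tested.

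Among the matrix lists, medians of the TAC to Sham log2 ratio in activated cells were 0.44 for fibrillar collagens (5 genes), 0.23 for proteoglycans (8 genes), 0.27 for TGF-beta genes (15 genes) and -0.09 for activated fibroblast genes (9 genes). Of the fibrillar collagens, 0 were 2-fold different, and of the proteoglycans Prg4, Bgn (2.33) and Lum (2.30) were higher. Sparc, which encodes a collagen-binding glycoprotein, was at 151 and 389 (2.57). Calr and Hsp90b1, chaperones of the endoplasmic reticulum, had levels of 48.3 and 142 (2.95), and 64.3 and 185 (2.87). Lum, Calr and Hsp90b1 entered the comparison through their TAC level, where they could only appear higher in TAC. Bgn and Lum were also higher in TAC than in Sham in the reference cells.

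**Figure D5:**
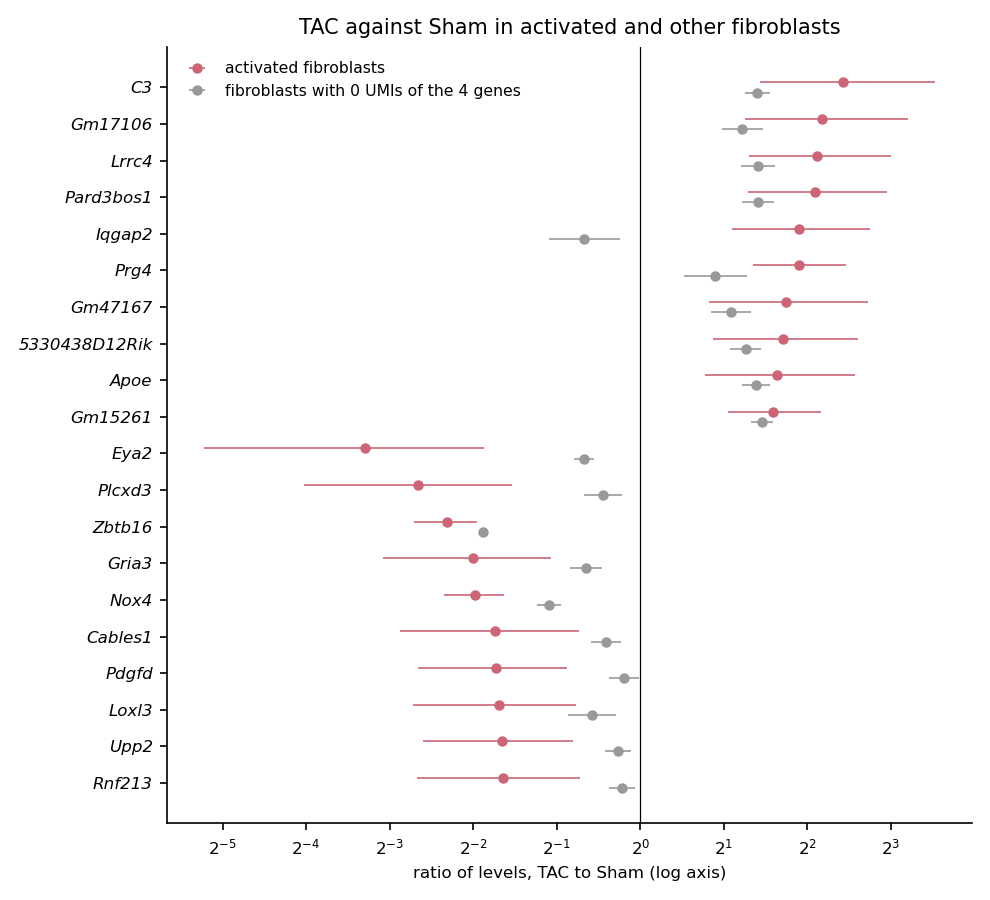
Ratio of TAC to Sham levels (x axis, log scale, with exact conditional 95% intervals) of the 10 genes highest and the 10 lowest in activated fibroblasts (red), beside the same ratio in 0-UMI fibroblasts (grey). All but Iqgap2 lie on the same side of 1 in both kinds of cell, with Zbtb16 at 0.201 and 0.272.

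Signs of other cells and of RNA quality were as follows. The mitochondrial share had medians of 0.731% in activated Sham cells and 1.46% in activated TAC cells, against 0.489% and 0.451% in reference cells, so it was higher in activated cells, and more so in TAC. Ribosomal protein genes made up 0.195% and 0.351% of UMIs, against 0.166% and 0.250%. Malat1 made up 7.91% and 8.61%, against 8.10% and 9.01%. Whether the barcodes held whole cells or nuclei was not tested. Cardiomyocyte markers (10 of 10 seen) summed to 2484 and 1522, against 2552 and 1988. Endothelial markers (8 of 10 seen in each library, Cldn5 at 0 in both) summed to 354 and 351, against 572 and 558. The rule limited Ryr2 and Myh6, and Flt1 and Cdh5, of these lists in both groups, which fixed part of the sums. Pericyte markers (5 of 7) were at 83.7 and 180, against 509 and 531 in reference and 791 and 1236 in intermediate cells, and Schwann cell markers (3 of 8, with Sox10 at 0) at 122 and 80.6, against 230 and 158. Mesothelial markers were at 0 in all activated cells. Smooth muscle markers summed to 200 in Sham (8 of 8 seen), against 65.5, and to 47.4 in TAC (5 of 8), against 75.8, and in Sham 27 of the 31 Myh11 UMIs were in 1 cell. The lymphocyte list was at 3433 and 4101 through Ebf1, which fibroblasts express, and Cd3e and Cd3g were at 0. Lymphatic markers had 9 and 8 UMIs in all. Doublet calling marked 2 of the 87 and 0 of the 59 activated cells. Of these measures, the part of the mitochondrial share, the smooth muscle markers and depth in the ratios above was not tested. In cells of 2000 to 8000 UMIs alone, 43 genes were higher and 44 lower in both libraries, of which 42 and 37 were among the 46 and 50.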

How the data were processed

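Hearts were dissociated into single cells and sequenced as 10x Chromium 3′ libraries, 1 for Sham and 1 for TAC. The authors deposited raw UMI counts per gene and barcode as filtered matrices, made with Cell Ranger 7.1.0 per the submitters' processing notes. The genome build, barcode filter, use of introns and use of strand are not given in the sources used here. Counts were used as deposited, with Python 3.11.15, numpy 2.4.6, scipy 1.17.1, pandas 2.3.3, scanpy 1.11.5, anndata 0.12.19 and matplotlib 3.10.9. Barcodes with at least 200 genes were kept, and barcodes called as doublets by Scrublet (seed 1) stayed in the main comparison. Levels were summed UMIs per 1000000, a gene was compared at an expected count of at least 20 UMIs in the smaller group, and a 2-fold difference was counted. The comparison was tested on simulated Poisson counts without variation between cells. That test cannot show how the intervals hold where few cells supply most UMIs of a gene. Positions were matched by gene ID to GENCODE M21 (52081 of 55357 IDs, 94.1%), and promoters came from RefSeq (GRCm38.p6).

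Leading genes were the 12 highest and 12 lowest by the smaller log2 ratio of the libraries, and the 10 highest and 10 lowest TAC to Sham ratios. Genes of the rule, mitochondrial, ribosomal protein and hemoglobin genes were left out, as were genes with over 20% of the higher group's UMIs in 1 cell. Of the leading lower genes, 1 is not reported here. Other genes were named from lists by size of ratio, UMIs or role, and some by role after their values were seen. Members and lists were chosen with earlier results of these data known. Motif sets, genes from few cells, groups by leading gene and the macrophage barcodes were chosen after values were seen. Alternatives changed the UMI threshold, the genes of the rule, cell filters, depth, reference cells, count minimum, fold and weighting.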

Additional observations from a re-analysis of the deposited data

Results flagged for a closer look

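In 4 of the named or listed genes, the TAC to Sham ratio in activated fibroblasts lay above 1 and that in reference fibroblasts below 1, with intervals that did not include 1. The search covered only those genes and not all 2223 compared, so the share over all genes is not known. Col8a1, Adamts6 and Iqgap2 had been named for their ratios in these same data. Col8a1, of collagen VIII, had a ratio of 1.35 (1.25 to 1.46) in activated and 0.779 (0.748 to 0.812) in reference cells. Mfap5, of microfibrils, had ratios of 1.315 (1.12 to 1.54) and 0.860 (0.802 to 0.921). Adamts6, a secreted metalloprotease, had ratios of 1.48 (1.18 to 1.87) and 0.871 (0.766 to 0.990). Iqgap2, a scaffold protein of the cytoskeleton, had ratios of 3.72 (2.15 to 6.71) and 0.629 (0.467 to 0.844), and 57.9% of its 19 UMIs in activated Sham cells were in 1 cell. With 1 library per condition, these differences were not tested.

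Outside the fibroblasts, the 4 genes of the rule had 556 of 1793 UMIs (31.0%) in Sham and 615 of 1592 (38.6%) in TAC. Postn had 292 and 413 of them, Cilp 99 and 60, Ltbp2 50 and 29 and Meox1 115 and 113. In each library 14 such barcodes had 4 or more UMIs of the genes. Of these, 7 in Sham and 11 in TAC had under 2 UMIs of the 4 fibroblast genes, and 7 and 3 were called as doublets.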

How the results depend on the processing

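Of the shares, counts of genes and list medians, 328 values under an alternative stayed close to the main value and 74 moved. Of the ratios of named genes, 983 stayed close, 85 moved and 0 changed direction. The share of activated cells (4.01% in Sham, 2.72% in TAC) was 5.34% and 3.91% at 3 or more UMIs, 2.12% and 1.70% at 6 or more, 5.405% and 4.06% in cells of 2000 to 8000 UMIs, 2.30% and 1.75% without Postn in the rule, 2.58% and 1.93% without Cilp, and 1.015% and 0.852% at 1000 UMIs per cell. It was lower in TAC in each of these, but the interval of the TAC to Sham ratio included 1 in all of them except at 3 or more UMIs (0.732, 0.547 to 0.977). Without Ltbp2 in the rule it also included 1 (0.694, 0.474 to 1.01).

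Genes higher in activated cells (101 in Sham, 106 in TAC, 46 in both) were 34, 42 and 20 at an expected count of 50, 2362, 2561 and 583 at 1 UMI in each group, 60, 69 and 13 against the intermediate cells, and 301, 275 and 123 at 1.5-fold. With the minimum from the reference level alone they were 49, 54 and 25. They were 65 in Sham without Postn in the rule, and 67 in TAC and 25 in both without the cells of 15 or more UMIs. Genes lower (107, 112 and 50) were 39, 40 and 19 at an expected count of 50, 1295, 1388 and 337 at 1 UMI in each group, and 286, 273 and 114 at 1.5-fold. Against the intermediate cells they were 63 in Sham and 23 in both, and with the minimum from the reference level 166 in Sham and 76 in both. They were 71 and 66 in Sham at 6 or more UMIs and without Postn, and 74 in TAC and 32 in both without the cells of 15 or more UMIs. Genes higher in TAC than in Sham activated cells (59) were 93 at 3 or more UMIs, 37 without Postn, 8 at an expected count of 50, 1873 at 1 UMI in each group, 199 at 1.5-fold and 27 without the cells of 15 or more UMIs. Genes lower in TAC (58) were 18, 1528 and 265 at an expected count of 50, 1 UMI in each group and 1.5-fold. With the minimum from the Sham level alone, 16 were higher and 110 lower, and with that from the TAC level alone 133 and 30.

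The median of the activated fibroblast genes was 0.95 in Sham without Postn, 1.96 without Cilp and 0.80 without the cells of 15 or more UMIs. In TAC it was 0.69 at 1 UMI in each group, 0.43 against the intermediate cells and 0.80 without the cells of 15 or more UMIs. Resident genes had medians of -0.33 in Sham at an expected count of 50, and -0.38 and -0.51 against the intermediate cells. Fibrillar collagens had 0.18 in Sham at an expected count of 50, and contractile genes 0.19 in TAC without Postn. Proteoglycans in TAC had 0.37 at 1 UMI in each group, 1.01 against the intermediate cells and 1.345 without the cells of 15 or more UMIs. A minimum of 50 UMIs compares fewer genes by its construction, and one from the level of 1 group admits fewer genes that are low in that group, and the cause of the other shifts was not tested. The limit of 15 UMIs, the minimum from the level of 1 group and the rule at 1000 UMIs were chosen after seeing the data. No paired analysis was possible because Sham and TAC had a single library each.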
